A study of Mus musculus with 6 samples.

Results

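The genes described here encode the uptake of fatty acids into heart cells, their transfer into mitochondria and their beta oxidation, together with the enzymes and regulators that set the rate. The 36 genes were taken by name from a list made with earlier results of these data known, and all 36 were found among the 19320 genes of the expression table. They were placed in 9 steps: uptake and activation (6 genes), the carnitine shuttle (4), acyl-CoA dehydrogenases (5), the later steps of beta oxidation (7), auxiliary enzymes for unsaturated fatty acids (3), electron transfer (3), malonyl-CoA control (3), transcription regulators (2) and lipid storage (3).

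The series holds RNA-seq of mouse heart from 3 groups of 2 samples, each labelled 2 weeks. The sham group was wild type and had sham surgery. The TAC group was wild type and had transverse aortic constriction, a narrowing of the aorta that loads the left ventricle with pressure. The third group carried the genotype label Snai1 knockdown and had TAC as well, and no knockdown group without TAC was analysed here. The series names a short hairpin RNA against Snai1, which encodes the transcriptional repressor Snail, but the sources used here give neither its delivery nor the cells it reached. Age, sex and strain are not given either, and the RNA protocol speaks of cultured cells beside heart tissue although every sample is labelled heart. No label states that replicates are separate mice, so a p-value below describes the spread between libraries, and that spread may be technical.

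The heart draws most of its energy from long-chain fatty acids. Lipases free them from circulating triglyceride, membrane proteins bring them in, acyl-CoA synthetases activate them, and carnitine esters carry them across the inner mitochondrial membrane. Each turn of beta oxidation then runs through a dehydrogenase, a hydratase, a second dehydrogenase and a thiolase, and passes electrons to the respiratory chain. Malonyl-CoA blocks entry at carnitine palmitoyltransferase of the outer membrane, and the nuclear receptor PPAR-alpha with its coactivator PGC-1 alpha drives transcription of many of these genes. Failing hearts are known for a shift from fatty acids towards glucose as fuel. The series asks how lowering Snai1 alters expression under pressure load.

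The 2 deposited columns of each group behaved as mixtures of the same 2 libraries in 60% and 40% shares, and resolving them gave whole read counts for 99.9% of values (tolerance 0.05). All values are from these 6 resolved libraries, which held between 14835957 and 18247812 reads, so that 3 reads made 0.164 to 0.202 CPM (reads of a gene per 1000000 reads of its library). Snai1 itself had 5.12 and 3.45 CPM in the sham libraries, 4.48 and 4.24 after TAC and 3.41 and 2.74 under knockdown, and the knockdown pair was lowest of the 6. Its log2 difference between knockdown and TAC was -0.51 ± 0.33 (SE), which did not pass the test (limma, Benjamini-Hochberg adjusted p = 0.999), so the knockdown itself was not established by these counts. The tissue label was borne out by 16 cardiomyocyte markers, which summed to 137590 to 153672 CPM. The 36 fatty acid genes together made 24337 and 27337 CPM in the sham libraries, 26011 and 23359 after TAC and 24682 and 25567 under knockdown. In whole tissue, fewer cells of a type and less RNA per cell cannot be told apart.

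Hadha and Hadhb, the alpha and beta subunits of the mitochondrial trifunctional protein, are shown by sequence because they lie head to head and their products form 1 complex. Hadha runs from 30118304 to 30155162 on the minus strand of chromosome 5 and Hadhb from 30155248 to 30184593 on the plus strand (GRCm38, GENCODE M21). The 85 bases between the outermost annotated ends, chr5:30155163-30155247, are given on the plus strand from RefSeq promoter windows of GRCm38.p6, with the GC box GGGCGG in capitals:
Hadha-Hadhb: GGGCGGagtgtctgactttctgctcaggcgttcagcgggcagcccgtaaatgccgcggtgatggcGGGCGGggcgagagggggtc
The stretch has a GC content of 69.4% and holds the box 2 times. On either strand the box was found in 22 of 33 promoter windows of the matched fatty acid genes (66.7%), against 35.7% of 32841 promoter windows of all genes. The 22 windows belong to 21 genes, and the windows of Hadha and Hadhb share 228 bases, so the windows are not independent. Each window covers 250 bases before and 50 after a start, and 29 of the 36 genes matched. The element AGGTCANAGGTCA, a consensus for PPAR-alpha with its partner RXR, was in 0 of these 33 windows and in 0.0396% of all windows. The looser form AGGNCANAGGNCA was in 0 and in 0.381%, and TCAAGGTCA, known for estrogen-related receptors, in 0 and in 0.423%. These elements are so rare over all windows that 33 windows would seldom hold any, so their absence says little about the fatty acid genes. The core AGGTCA, which is contained in the first and the third of these, was in 5 of 33 windows (15.2%), those of Acacb, Acadm, Acadvl, Cd36 and Echs1, against 16.3% of all windows.

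Levels were compared between genes as CPM per kb of the longest coding transcript, averaged over the 6 libraries. Lpl, the lipase that frees fatty acids from lipoproteins, had the highest level with 1777 CPM per kb, followed by Fabp3, the fatty acid binding protein of heart muscle, with 1352. The dehydrogenases Acadl and Acadm had 693 and 650, Fabp4 of adipocytes and endothelium 646, Hadha 514 and the fatty acid translocase Cd36 496. At the other end stood Lipe (hormone-sensitive lipase) with 12.4, Ppara with 10.9, Cpt1b with 7.20, the peroxisomal enzyme Ehhadh with 4.60 and the carboxylase Acaca with 1.30 CPM per kb. The order depended on the length used. Per kb of all exons merged, Fabp3 came first with 1352 and Lpl the second with 698, while Acadl had 663, Acadm 340, Hadha 236 and Fabp4 129, which moved Fabp4 from rank 5 to rank 14. Lipe, Ppara, Cpt1b, Ehhadh and Acaca were the lowest 5 by either length.

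**Figure D1:**
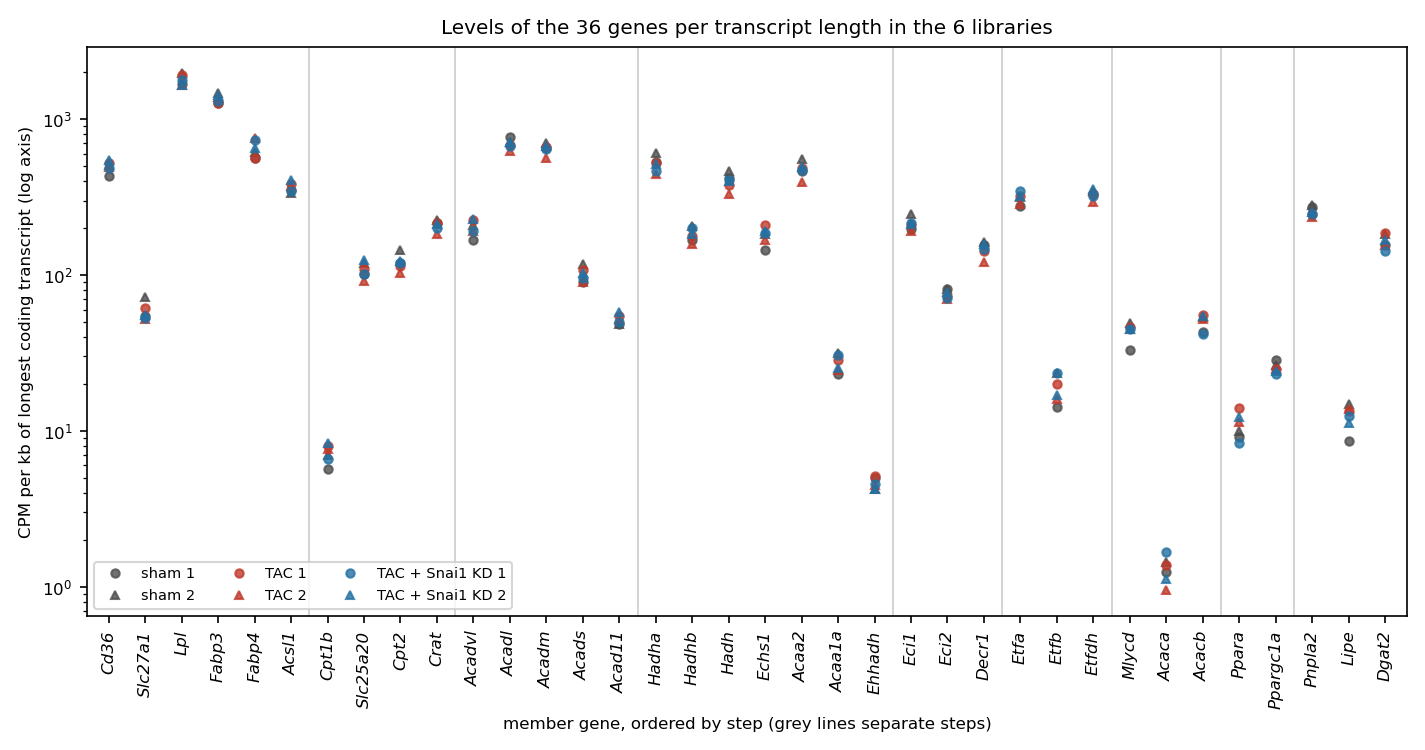
CPM per kb of the longest coding transcript (log axis) for the 36 genes in step order, with a circle for replicate 1 and a triangle for replicate 2 of each group (grey sham, red TAC, blue TAC with Snai1 knockdown). The genes span from 1.30 CPM per kb for Acaca to 1777 for Lpl on average, while the 6 libraries of each gene lie close together.

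Partners of a complex or pathway were not counted at equal levels per kb. Hadha stood at 2.30 to 3.17 times Hadhb over the 6 libraries, and Etfa at 13.6 to 19.6 times Etfb, the other subunit of the electron transfer flavoprotein. Acacb, the carboxylase at the mitochondrial membrane, stood at 25.0 to 54.5 times the cytosolic form Acaca. Cpt1b, the muscle form of the outer-membrane transferase, stood at 0.458 to 0.565 times the liver form Cpt1a and at 0.0473 to 0.0741 times Cpt2. With merged exons in place of the longest coding transcript, the ratio of mean levels was 4.18 for Hadha to Hadhb, 16.2 for Etfa to Etfb, 62.9 for Acacb to Acaca, 0.764 for Cpt1b to Cpt1a and 0.0515 for Cpt1b to Cpt2. Levels of Cpt1b and Etfb need care, since 81.4% of the exon bases of Cpt1b (chromosome 15, 89416405 to 89425863, minus strand) also belong to the same-strand gene Gm44502, and 58.2% of those of Etfb (chromosome 7, 43444083 to 43457800, plus strand) to Gm45233 and Mir7051. How the counting treated shared bases is not given in the sources used here, and Gm44502 and Gm45233 were not analysed here. Acadvl shares 42.9% of its exon bases with Dvl2 on the opposite strand, and the strand setting is not given either.

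Between TAC and sham, no fatty acid gene was called: 0 of 36 passed limma's test at a Benjamini-Hochberg adjusted p below 0.05, against 0.159% of the 14447 genes tested (23 genes). With limma-voom weights and with robust limma the count was also 0 of 36. At an unadjusted p below 0.05, 1 gene was higher in TAC (Ppara) and 3 were lower (Hadh, Cpt2 and Decr1), against 5.86% of all genes higher and 3.72% lower. Both TAC libraries lay above both sham libraries for 4 genes, where 23.7% of all genes did so, and below for 9 of 36, where 16.4% of all genes did so. The median log2 difference over the 36 genes was -0.06, with 14 positive and 22 negative, beside 0.04 over all genes tested. The differences ran from -0.32 to 0.40. The sign of the median rested on single libraries: it was 0.065 without sham replicate 2 and 0.017 without TAC replicate 2.

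Between TAC with Snai1 knockdown and TAC, again 0 of 36 genes passed limma's test (0% of all genes tested, 0 of 14447), and 0 did so with limma-voom weights or robust limma. At an unadjusted p below 0.05, 0 genes were higher and 0 lower, beside 1.27% and 0.810% of all genes. The knockdown libraries both lay above both TAC libraries for 6 genes (16.0% of all genes) and below for 2 (12.4% of all genes). The median difference was 0.05 on the log2 scale, with 24 positive and 12 negative, beside 0.02 over all genes; it was -0.019 without TAC replicate 2 and 0.14 without TAC replicate 1. Between knockdown and sham, 0 of 36 passed (0.242% of all genes, 35 genes, passed), and 0 did so with voom weights or robust limma. At an unadjusted p below 0.05, 0 were higher and 0 lower, beside 6.02% and 2.78% of all genes. Non-overlap upwards held for 4 genes (25.4% of all genes) and downwards for 6 (13.8% of all genes), with a median of -0.005 beside 0.05 over all genes. Leaving out sham replicate 1 made that median -0.11, and leaving out sham replicate 2 made it 0.11. These comparisons share libraries: TAC stands in the first and the second, sham in the first and the third, and knockdown in the second and the third.

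The precision sets what these counts can say. The SE of a difference ran from 0.10 to 0.24 over the 36 genes, with 2 libraries per group. Every 95% interval lay within a 2-fold change in all 3 comparisons, and within 1.5-fold for 32 genes between TAC and sham, 32 between knockdown and TAC and 34 between knockdown and sham. The outermost bounds were -0.74 and 0.78, -0.69 and 0.78, and -0.49 and 0.65 on the log2 scale. The intervals are for single genes and are not adjusted for the number of genes.

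Single libraries weighed on many of the differences named below. Of the 8 genes with the smallest p in each comparison, leaving out 1 library moved the difference by over 1.5 times for 5 between TAC and sham, for 8 between knockdown and TAC and for 6 between knockdown and sham. Between knockdown and TAC, leaving out TAC replicate 2 or replicate 1 gave 0.084 or 0.32 for Decr1, 0.085 or 0.29 for Hadh, 0.083 or 0.24 for Cpt2, 0.11 or 0.27 for Hadhb and 0.049 or 0.22 for Etfa. Leaving out knockdown replicate 1 or 2 gave -0.050 or -0.59 for Ppara, 0.31 or 0.034 for Slc25a20 and 0.019 or -0.36 for Acacb. Between knockdown and sham, leaving out sham replicate 1 or 2 gave -0.30 or -0.11 for Hadha, -0.41 or -0.003 for Slc27a1, 0.042 or 0.38 for Echs1 and 0.068 or 0.27 for Etfa. Leaving out knockdown replicate 1 or 2 gave 0.15 or 0.31 for Fabp4 and 0.25 or 0.042 for Acad11. The exceptions, which moved by less, were Hadh, Eci2 and Pnpla2 between TAC and sham and Ppargc1a and Pnpla2 between knockdown and sham.

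**Figure D2:**
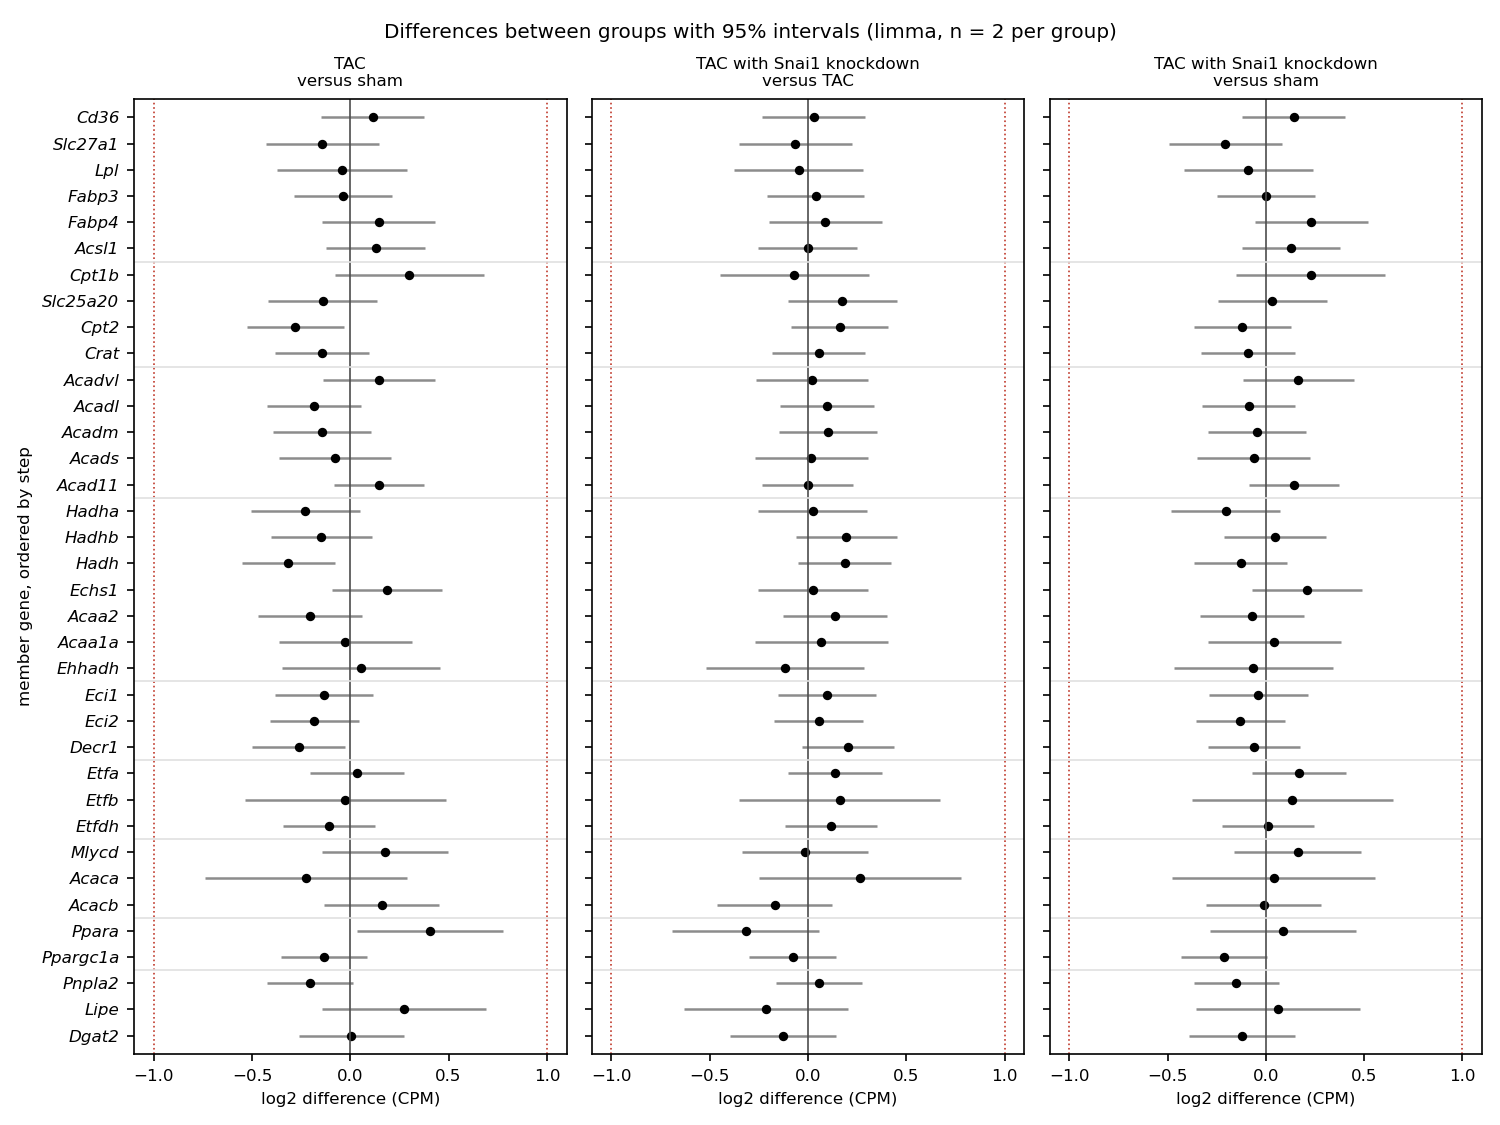
Log2 differences in CPM (points) with 95% intervals (bars) from limma for the 36 genes in step order, in 3 panels for TAC versus sham, knockdown versus TAC and knockdown versus sham, with red dotted lines at 2-fold. All intervals stay inside the lines, and 4 intervals in the first panel (Hadh, Cpt2, Decr1 and Ppara) leave out 0.

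Uptake and activation showed no shared direction between TAC and sham: 3 of the 6 genes were positive and 3 negative, with a median of 0.04. Cd36, the main fatty acid transporter of the heart cell membrane, had 1466 and 1712 CPM in the sham libraries, 1766 and 1665 after TAC and 1649 and 1857 under knockdown. Its groups overlapped in every comparison, and the log2 difference was 0.11 ± 0.12 between TAC and sham. Slc27a1, a fatty acid transport protein, had 152 and 201 CPM in the sham libraries, 172 and 145 after TAC and 147 and 155 under knockdown. Sham replicate 2 stood highest, and knockdown against sham gave -0.21 ± 0.13 with overlapping groups. Fabp4 had 502 and 554 CPM in the sham libraries, 501 and 678 after TAC and 654 and 586 under knockdown. Both knockdown libraries lay above both sham libraries, by 0.23 ± 0.13 on the log2 scale (limma, Benjamini-Hochberg adjusted p = 0.666), while the TAC libraries lay on either side.

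Fabp4, Lpl and Lipe are also genes of adipocytes, so 15 adipocyte markers in the table were summed. They made 97.7 to 130 CPM, highest in knockdown replicate 1 and lowest in knockdown replicate 2. Most of that sum came from Cidea (34.6 to 40.5 CPM), Thrsp (19.0 to 27.7) and Aqp7 (15.2 to 26.4). The median of the 12 markers tested, each relative to its own mean, ran from -0.42 in TAC replicate 1 to 0.61 in knockdown replicate 1. Car3 and Cfd were also highest in knockdown replicate 1, with 11.3 and 5.51 CPM, while Trarg1 and Nnat were lowest there, with 1.11 and 0.328 CPM. Adipoq (adiponectin) had at most 0.697 CPM, in TAC replicate 2, and Lep (leptin) had 0 reads in 5 of the 6 libraries. The part of adipocytes in the values of these genes was not tested. The endothelial list, for the other cells that express Fabp4, summed to 2150 and 2172 CPM in the sham libraries, 2134 and 2465 after TAC and 2554 and 2250 under knockdown. Both Fabp4 and the endothelial sum had their 2 highest values in TAC replicate 2 and knockdown replicate 1, and the part of endothelial cells in the Fabp4 values was not tested. Of the remaining uptake genes, Lpl ranged from 6770 to 8139 CPM, Fabp3 from 1040 to 1206 and the acyl-CoA synthetase Acsl1 from 1312 to 1592. Both TAC libraries of Acsl1 exceeded both sham libraries, by 0.13 ± 0.12 on the log2 scale, and Lpl and Fabp3 overlapped in all comparisons.

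In the carnitine shuttle, 3 of 4 genes were negative between TAC and sham, and the outer-membrane enzyme was the positive one. Cpt1b, the step that malonyl-CoA inhibits, had 16.4 and 20.4 CPM in the sham libraries, 23.0 and 22.1 after TAC and 19.0 and 24.2 under knockdown. Both TAC libraries were above both sham libraries by 0.30 ± 0.18 (limma, Benjamini-Hochberg adjusted p = 0.628), and the knockdown libraries lay on either side of TAC. Leaving out sham replicate 1 gave 0.14, and leaving out sham replicate 2 gave 0.46. This difference needs the same care as the level, since 81.4% of the exon bases of Cpt1b also belong to Gm44502. Cpt2, the inner-membrane transferase that gives the acyl group back to coenzyme A (chromosome 4, 107903981 to 107923610, minus strand), had 284 and 345 CPM in the sham libraries, 272 and 244 after TAC and 284 and 292 under knockdown. TAC lay below sham by -0.28 ± 0.12 on the log2 scale (limma, Benjamini-Hochberg adjusted p = 0.443). With sham replicate 1 left out it was -0.42, and with sham replicate 2 left out -0.14. The knockdown libraries lay above TAC by 0.16 ± 0.12 and between the sham libraries.

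Slc25a20, the translocase that exchanges acylcarnitine for carnitine, had 181 and 211 CPM in the sham libraries, 195 and 162 after TAC and 182 and 221 under knockdown, and its groups overlapped throughout. Crat, carnitine acetyltransferase, had 905 and 949 CPM in the sham libraries, 903 and 779 after TAC and 843 and 898 under knockdown. Its TAC libraries lay below both sham libraries by -0.14 ± 0.11, and so did its knockdown libraries, by -0.09 ± 0.11. The margin was narrow, since TAC replicate 1 and knockdown replicate 2 were close to sham replicate 1. The step's median was -0.14 between TAC and sham, 0.11 between knockdown and TAC and -0.03 between knockdown and sham.

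The acyl-CoA dehydrogenases, which open each turn of beta oxidation and differ in the chain length they take, went in both directions. Acadvl, for very long chains, had 362 and 451 CPM in the sham libraries, 486 and 412 after TAC and 413 and 497 under knockdown, with overlapping groups and a difference of 0.15 ± 0.13 between TAC and sham. Acad11, a family member for longer chains, had 166.8 and 167.0 CPM in the sham libraries, 189 and 181 after TAC and 172 and 198 under knockdown. All 4 TAC and knockdown libraries exceeded both sham libraries, by 0.15 ± 0.11 and 0.14 ± 0.11. Acadl, for long chains, was the only other gene of the step without overlap between TAC and sham: its sham libraries had 1465 and 1361 CPM against 1297 and 1191 in TAC, a difference of -0.18 ± 0.11. Acadm for medium chains ranged from 1159 to 1442 CPM and Acads for short chains from 167 to 221, with overlap in all 3 comparisons. The step's medians were -0.08, 0.02 and -0.04 in the order of the comparisons above.

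Among the later steps of beta oxidation, 5 of 7 genes were negative between TAC and sham, with a median of -0.15. Hadh, the short-chain 3-hydroxyacyl-CoA dehydrogenase (chromosome 3, 131233419 to 131272101, minus strand), had the smallest p of the 36 genes between TAC and sham. It had 749 and 825 CPM in the sham libraries, 678 and 589 after TAC and 722 and 717 under knockdown. TAC stood below sham by -0.32 ± 0.11 on the log2 scale, which did not pass the test over all genes (limma, Benjamini-Hochberg adjusted p = 0.353). The knockdown libraries lay between the groups, above both TAC libraries by 0.19 ± 0.11 and below both sham libraries by -0.13 ± 0.11.

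Hadha had 2125 and 2423 CPM in the sham libraries, 2104 and 1783 after TAC and 1862 and 2082 under knockdown. Both TAC and both knockdown libraries lay below both sham libraries, by -0.23 ± 0.13 and -0.20 ± 0.13. The former was -0.35 without TAC replicate 1 and -0.11 without TAC replicate 2. Its partner Hadhb had 341 and 423 CPM in the sham libraries, 363 and 325 after TAC and 413 and 374 under knockdown. The TAC and sham libraries of Hadhb overlapped at -0.15 ± 0.12, and both knockdown libraries exceeded both TAC libraries by 0.19 ± 0.12. The ratio of Hadha to Hadhb per kb was 3.17 and 2.92 in the sham libraries, 2.96 and 2.80 after TAC and 2.30 and 2.84 under knockdown, and was lowest in knockdown replicate 1.

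Echs1, the short-chain hydratase, had 226 and 286 CPM in the sham libraries, 324 and 260 after TAC and 291 and 299 under knockdown. Knockdown lay above sham in both libraries by 0.21 ± 0.13, and TAC overlapped sham at 0.19 ± 0.13. The mitochondrial thiolase Acaa2, which releases acetyl-CoA, ranged from 601 to 835 CPM, with a difference of -0.21 ± 0.12 between TAC and sham and overlapping groups. The peroxisomal thiolase Acaa1a ranged from 40.9 to 55.4 CPM and the peroxisomal Ehhadh from 12.6 to 15.2, both with overlap in all 3 comparisons. Acaa1a has a near-identical copy, Acaa1b, counted at 1.70 to 2.83 CPM, and reads could be split between them.

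**Figure D3:**
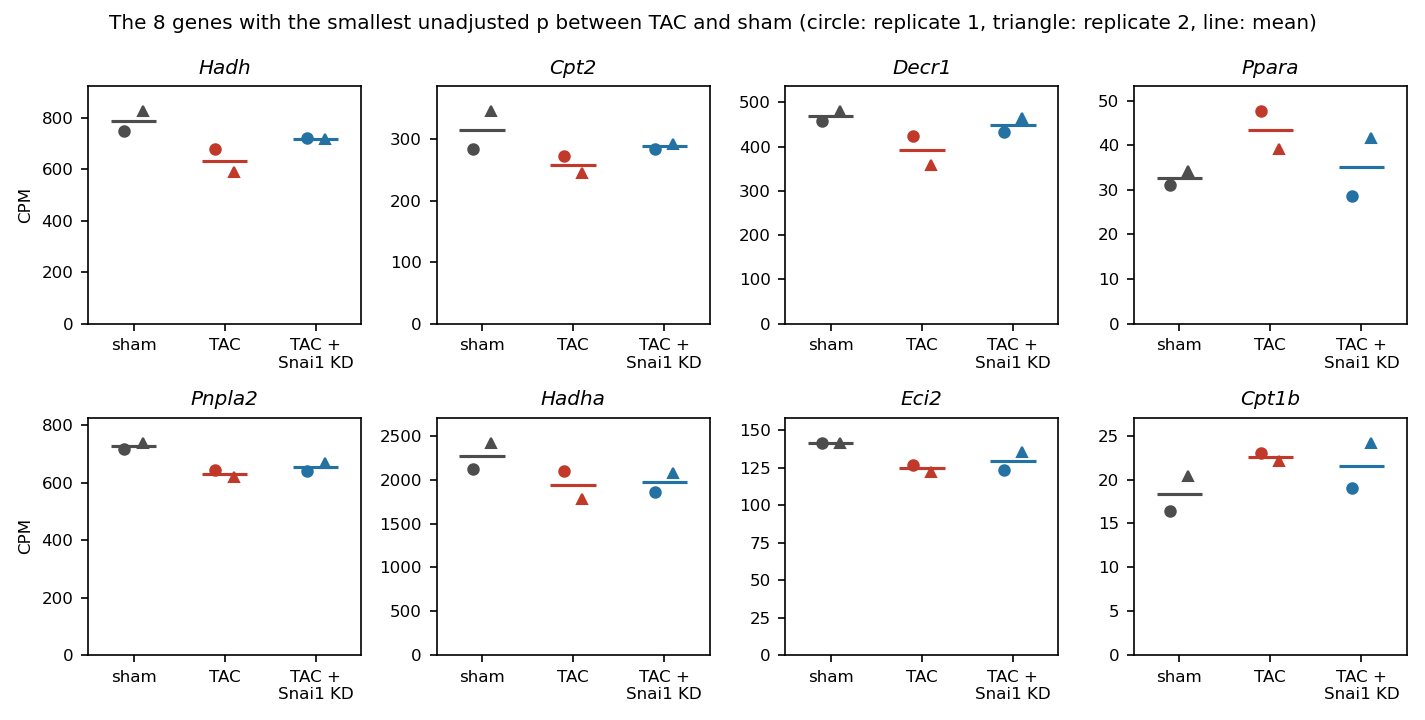
CPM in each library (circles for replicate 1, triangles for replicate 2, lines for group means, axes from 0) for the 8 genes with the smallest unadjusted p between TAC and sham. Hadh, Cpt2, Decr1, Pnpla2, Hadha and Eci2 were lower in both TAC libraries than in both sham libraries and Ppara and Cpt1b higher, and none passed the test over all genes.

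The 3 auxiliary enzymes, which reshape the double bonds of unsaturated fatty acids so that beta oxidation can go on, were all negative between TAC and sham and all positive between knockdown and TAC. Decr1, the dienoyl-CoA reductase (chromosome 4, 15917240 to 15945507, minus strand), had 457 and 480 CPM in the sham libraries, 424 and 360 after TAC and 434 and 465 under knockdown. TAC lay below sham by -0.26 ± 0.11 (limma, Benjamini-Hochberg adjusted p = 0.454), and this was -0.38 without TAC replicate 1 and -0.14 without TAC replicate 2. Knockdown lay above TAC by 0.20 ± 0.11. The latter was the smallest unadjusted p of the 36 genes in that comparison, and it did not pass (limma, Benjamini-Hochberg adjusted p = 0.999). Eci2, an enoyl-CoA isomerase, had 141.5 and 141.6 CPM in the sham libraries, 127 and 122 after TAC and 124 and 135 under knockdown, and its TAC and knockdown libraries all lay below sham, by -0.18 ± 0.11 and -0.13 ± 0.11. Eci1, the other isomerase, had 224 and 279 CPM in the sham libraries, 238 and 218 after TAC and 245 and 242 under knockdown, so that knockdown exceeded TAC without overlap, by 0.10 ± 0.12.

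The 3 electron transfer genes had a median of -0.03 between TAC and sham, and all 3 were positive in both comparisons with knockdown. Etfa, the alpha subunit of the flavoprotein that takes electrons from the dehydrogenases, had 385 and 443 CPM in the sham libraries, 449 and 398 after TAC and 480 and 450 under knockdown. Both knockdown libraries lay above the other 4, by 0.14 ± 0.11 against TAC and 0.17 ± 0.11 against sham (limma, Benjamini-Hochberg adjusted p = 0.999 and 0.715). Its partner Etfb ranged from 12.60 to 20.96 CPM, and Etfdh, which passes the electrons to ubiquinone, from 703 to 852, with overlap throughout.

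Malonyl-CoA control showed overlap for all 3 genes in all 3 comparisons. Mlycd, the decarboxylase that removes malonyl-CoA, had 70.4 and 104 CPM in the sham libraries, 98.2 and 95.5 after TAC and 96.2 and 95.5 under knockdown, and sham replicate 1 stood alone below the other libraries. Acacb, which makes malonyl-CoA at the mitochondrial surface, had 377 and 472 CPM in the sham libraries, 487 and 456 after TAC and 368 and 478 under knockdown. Its difference between knockdown and TAC was -0.17 ± 0.14, and 0.019 without knockdown replicate 1. Acaca ranged from 9.06 to 15.9 CPM and had the widest interval of the 36 genes.

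The regulators went opposite ways. Ppara (chromosome 15, 85734983 to 85802819, plus strand), which encodes the nuclear receptor of the pathway, had 31.1 and 34.1 CPM in the sham libraries, 47.6 and 39.1 after TAC and 28.7 and 41.6 under knockdown. Both TAC libraries exceeded both sham libraries by 0.40 ± 0.17, the largest difference of the 36 genes in size, and it did not pass (limma, Benjamini-Hochberg adjusted p = 0.472); it was 0.26 without TAC replicate 1 and 0.55 without TAC replicate 2. The knockdown libraries were spread from below sham to within TAC, a difference from TAC of -0.32 ± 0.17. Ppargc1a, which encodes PGC-1 alpha, had 183 and 171 CPM in the sham libraries, 161.5 and 161.1 after TAC and 149 and 156 under knockdown. The groups were ordered without overlap, sham above TAC above knockdown. Knockdown lay below sham by -0.21 ± 0.10, the smallest p of that comparison, and did not pass (limma, Benjamini-Hochberg adjusted p = 0.582).

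In lipid storage, Pnpla2, the adipose triglyceride lipase that opens stored triglyceride (chromosome 7, 141455198 to 141460743, plus strand), had 716 and 738 CPM in the sham libraries, 643 and 618 after TAC and 642 and 669 under knockdown. All 4 TAC and knockdown libraries lay below both sham libraries, by -0.20 ± 0.10 and -0.15 ± 0.10 (limma, Benjamini-Hochberg adjusted p = 0.553 and 0.726). Lipe had 31.7 and 55.1 CPM in the sham libraries, and the other 4 libraries lay between these. Dgat2, which adds the last acyl group to triglyceride, ranged from 324 to 419 CPM and overlapped in all 3 comparisons.

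Within each group, most of the 36 genes were higher in the same library. In sham, replicate 2 exceeded replicate 1 for 32 of 36 genes (88.9%, against 45.9% of all genes tested), by a median of 0.22 on the log2 scale. In TAC, replicate 1 exceeded replicate 2 for 33 of 36 (91.7%, against 40.2% of all genes), and the median of replicate 2 minus replicate 1 was -0.18. With knockdown, replicate 2 was the higher for 24 of 36 (66.7%, against 39.4%), by a median of 0.07. Sham replicate 2 was the highest of the 6 libraries for 19 genes, TAC replicate 2 the lowest for 18 and sham replicate 1 the lowest for 11. The genes of a library share its RNA and its total, so these counts describe 6 libraries and not 36 independent measurements.

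**Figure D4:**
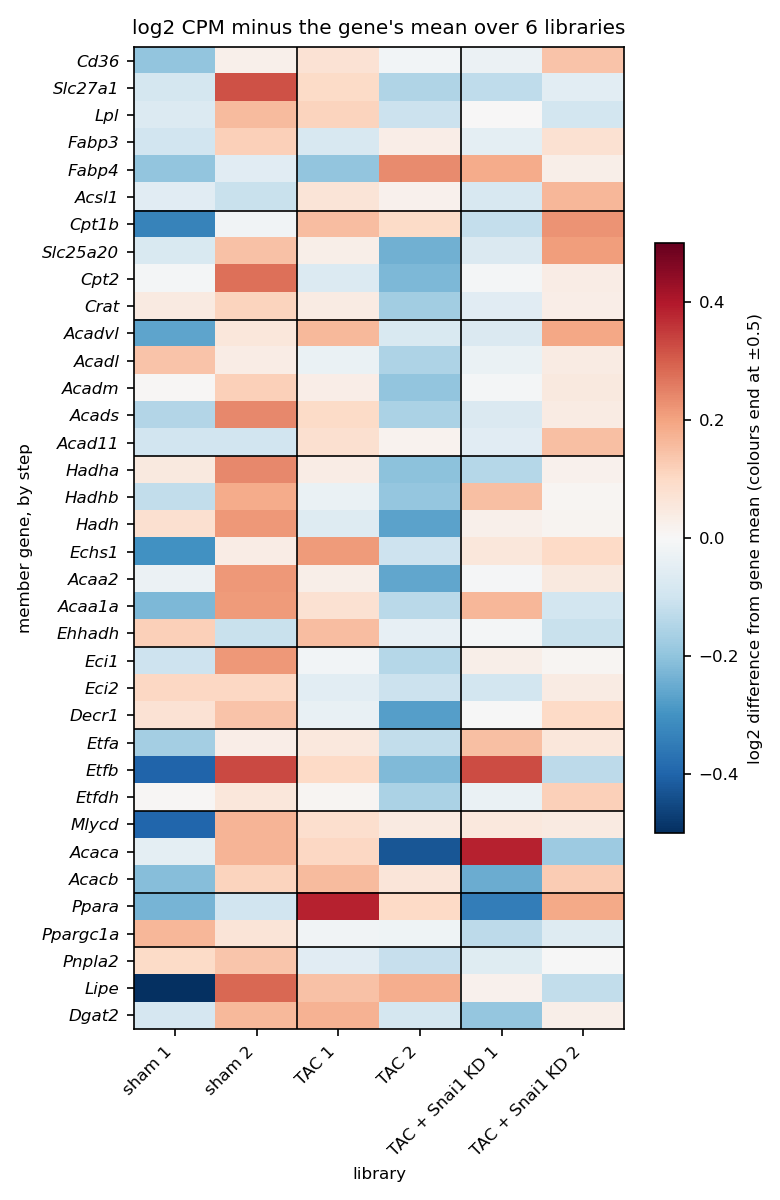
Log2 CPM of each gene minus its mean over the 6 libraries (red above, blue below, colours ending at 0.5 either way), with genes in step order and black lines between steps and between groups. Sham replicate 2 is red and TAC replicate 2 blue for most genes: the former was highest for 19 genes and the latter lowest for 18.

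The cell type lists were set beside this order of libraries. Taking each gene relative to its own mean, the median of the 36 genes was -0.08 and 0.13 in the sham libraries, 0.06 and -0.12 after TAC and -0.03 and 0.04 under knockdown. The 16 cardiomyocyte markers had medians of -0.05 and 0.03, 0.05 and -0.07, and 0.01 and 0.03, with the same sign in every library but knockdown replicate 1. The 12 fibroblast markers had -0.07 and -0.13, -0.19 and 0.31, and 0.15 and -0.01, so that TAC replicate 2 was the highest for them. The 15 endothelial markers had -0.11 and -0.11, -0.14 and 0.22, and 0.19 and 0.01. Macrophage markers differed between the groups: 3 of 14 rose between sham and TAC (limma, Benjamini-Hochberg adjusted p below 0.05), beside 0.159% of all genes called in either direction. Between sham and knockdown 4 of 14 rose, beside 0.242% of all genes. Mpeg1, Ms4a7 and Lgals3 were called in both and Cd68 in the latter. The macrophage markers summed to 446 and 408 CPM in the sham libraries, 589 and 731 after TAC and 938 and 638 under knockdown. The 6 erythroid markers tested had medians of 0.73 and -0.13 in the sham libraries, -0.19 and -0.29 after TAC and -0.33 and 0.17 under knockdown. Of these 6, 3 had an unadjusted limma p below 0.05 as lower between TAC and sham, beside 3.72% of all genes, and 0 were called. The part of these cells in the fatty acid differences was not tested.

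**Figure D5:**
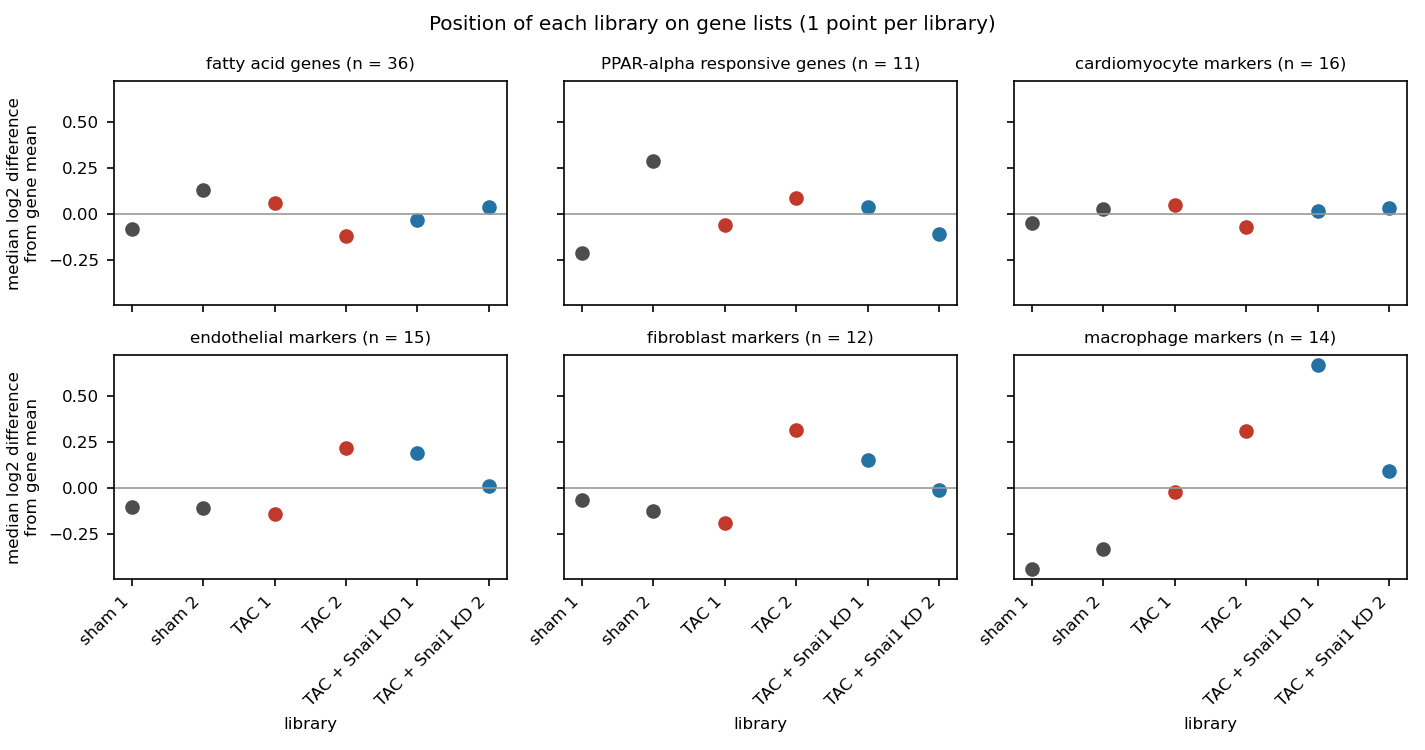
Median over each gene list of log2 CPM minus the gene's mean over the 6 libraries, with 1 point per library (grey sham, red TAC, blue TAC with Snai1 knockdown). The fatty acid genes lie between -0.12 and 0.13, with the libraries of a group on opposite sides of 0, while the macrophage markers run from -0.44 in sham replicate 1 to 0.66 in knockdown replicate 1.

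Another 117 genes of this pathway and of related ones were read in 7 lists, and not all of them act on fatty acids. Of these, 116 were in the table and 111 were tested, and 0 passed limma's test in each of the 3 comparisons. With voom weights the count was also 0, and with robust limma it was 1 higher between TAC and sham (Esrrb) and 0 in the other comparisons. Esrrb also passed between TAC and sham with 2 reads added, while the smallest adjusted p of the 111 genes rose to 0.328 without TAC replicate 2 (limma, Benjamini-Hochberg). Without TAC replicate 1, Fabp5 passed between TAC and sham, and without sham replicate 1, Plin4 passed as lower between knockdown and sham. At an unadjusted p below 0.05, 8 were higher and 6 lower between TAC and sham, 3 and 2 between knockdown and TAC, and 9 and 5 between knockdown and sham. These are 7.21% and 5.41%, 2.70% and 1.80%, and 8.11% and 4.50% of the 111, beside 5.86% and 3.72%, 1.27% and 0.810%, and 6.02% and 2.78% of all genes. The medians were 0.02, 0.03 and 0.04. The smallest adjusted p was that of Esrrb, an estrogen-related receptor, with 42.6 and 44.5 CPM in the sham libraries, 70.0 and 64.9 after TAC and 53.0 and 53.2 under knockdown. Its difference between TAC and sham was 0.63 ± 0.12 (limma, Benjamini-Hochberg adjusted p = 0.0552, and 0.0403 with robust limma), and between knockdown and TAC -0.34 ± 0.12 (limma, Benjamini-Hochberg adjusted p = 0.999). Its relative Esrrg had 69.4 and 66.5 CPM in the sham libraries, 90.6 and 82.5 after TAC and 76.9 and 85.4 under knockdown, a difference of 0.35 ± 0.12 between TAC and sham.

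Among the other uptake and activation genes, Acsf2, an acyl-CoA synthetase family member, had 55.4 and 56.8 CPM in the sham libraries, 38.4 and 36.6 after TAC and 43.0 and 42.9 under knockdown. The difference between TAC and sham was -0.58 ± 0.12 (limma, Benjamini-Hochberg adjusted p = 0.0760). Fabp5, a fatty acid binding protein also made by macrophages and endothelium, had 12.5 and 13.0 CPM in the sham libraries, 17.0 and 28.4 after TAC and 25.2 and 20.7 under knockdown, above sham by 0.79 ± 0.22 and 0.84 ± 0.22. Of the 5 other carnitine shuttle genes, all were positive between TAC and sham, and Cpt1a, the liver form of the outer-membrane transferase, had 53.3 and 56.4 CPM in the sham libraries, 72.6 and 65.8 after TAC and 58.8 and 63.8 under knockdown (0.33 ± 0.12). Of 17 other genes of mitochondrial oxidation, which do not all act on fatty acids, 13 were negative between TAC and sham (76.5%, beside 43.8% of all genes). Of the same 17, 14 were positive between knockdown and TAC (82.4%, beside 54.4% of all genes). As with the 36 genes, the median of the 17 relative to each gene's mean was highest in sham replicate 2 (0.15) and lowest in TAC replicate 2 (-0.18). Among them Acat1, the acetoacetyl-CoA thiolase, had 846 CPM in each sham library, 728 and 667 after TAC and 793 and 775 under knockdown (-0.28 ± 0.10 between TAC and sham).

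In malonyl-CoA control and synthesis, Srebf1, a regulator of lipid synthesis, had 27.4 and 24.3 CPM in the sham libraries, 40.7 and 38.0 after TAC and 38.9 and 36.1 under knockdown. TAC lay above sham by 0.61 ± 0.14 (limma, Benjamini-Hochberg adjusted p = 0.106). Scd2, a fatty acid desaturase, had 32.3 and 24.1 CPM in the sham libraries, 44.3 and 46.5 after TAC and 48.44 and 36.004 under knockdown, a difference of 0.70 ± 0.17 between TAC and sham. In lipid storage, Plin5, a lipid droplet protein of oxidative tissue, had 53.7 and 76.2 CPM in the sham libraries, 82.0 and 106 after TAC and 74.6 and 92.7 under knockdown (0.54 ± 0.17). The 15 other peroxisomal genes held 0 with an unadjusted p below 0.05 in any comparison.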

How the data were processed

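RNA of 6 mouse heart samples in 3 groups of 2 was analysed. TRIzol extraction and the SMARTer mRNA-seq kit are stated per the labels' protocols. Of tools and builds, the submitters' processing notes list limma (unversioned) and mm10, and the sources used here give no aligner, counter, annotation or strand setting. The authors deposited log2 CPM with, from the values, 0.5 reads added and 1 added to the total. Each pair of columns was resolved as 60% and 40% mixtures of 2 libraries, which gave whole counts within 0.05 for 99.9% of 115920 values and 0 negative values, against 20.6 to 21.1% for 12 pairs of columns from different groups. No source used here records that mixing. A library takes the replicate number of the column that holds its larger share.

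The filter asked for the CPM of 10 reads in the median library in at least 2 libraries and for 15 reads over all libraries, which left 14447 and removed 4873 with 0.0583% of reads. All 36 genes passed. limma 3.58.1 in R 4.3.3 (lmFit, contrasts.fit, eBayes with trend) was fitted to all 6 libraries, on resolved counts as log2 CPM with 0.5 reads added, so a fold change of a low gene is understated, and p-values were adjusted by Benjamini-Hochberg over all genes of a comparison. The fit had 3 residual and 11.3 prior degrees of freedom. The steps were tested on simulated data. Count models were not run: the test was tied to the deposited log2 unit, although the resolved values are whole counts to which such a model could be fitted.

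Values per library are given for the first gene of each step and for the 8 genes with the smallest unadjusted p in each comparison, and by range or difference for the rest. Genes of the other pathway lists are named by smallest p, at most 2 per list. The genes and lists were chosen with earlier results of these data known. Alternatives were median ratio scaling, quantile normalization, no filter, a mean of at least 100 reads, 2 reads added, voom weights, robust limma, the deposited columns unresolved, a replicate block and leaving out each library. Gene positions and lengths came from GENCODE M21. Adipoq, Lep, the adipocyte markers named for their highest or lowest library, Acaa1b, the subunit ratios and the genes named for non-overlap were chosen after their values were seen.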

Additional observations from a re-analysis of the deposited data

How the results depend on the processing

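The count of called genes among the 36 stayed at 0 under 14 of 15 alternatives. Among the 111 other pathway genes it moved from 0 to 1 with 2 reads added, robust limma, without TAC replicate 1 and without sham replicate 1. In the deposited columns left unresolved, where the 2 columns of a group hold the same libraries and their spread is not one between samples, limma called 11 of the 36 genes higher and 18 lower between TAC and sham, 16 and 7 between knockdown and TAC, and 10 and 15 between knockdown and sham. Most of the table was called there too. Of all 19320 genes, 7638 were higher and 6174 lower, 6593 and 5544, and 7993 and 5676, in the same order of comparisons. The 24 named differences in 15 settings gave 360 values, of which 335 kept their direction and stayed uncalled and 24 passed the test in the unresolved columns. The remaining 1 changed sign: with each library left out in turn, the difference of Acacb between knockdown and TAC ran from -0.36 to 0.019, positive without knockdown replicate 1. The cause was not tested. Over these libraries left out, the median of the 36 genes ran from -0.17 to 0.065 between TAC and sham, from -0.019 to 0.14 between knockdown and TAC and from -0.11 to 0.11 between knockdown and sham, and its sign was not stable. Adjusted p of the named genes in the other 14 settings ran from 0.288 to 0.948, 0.987 to 1.0 and 0.385 to 0.997 in that order. The count over all genes between TAC and sham, 12 higher and 11 lower, was 1 and 3 without TAC replicate 2, 5 and 4 with no filter, and 21 and 21 with 2 reads added; between knockdown and sham, 20 and 15, it was 3 and 2 without sham replicate 2, 1 and 8 without knockdown replicate 1, 7 and 7 with no filter and 6 and 12 with voom weights. With a replicate block, 0 of the 36 genes were called in each comparison and the medians were -0.06, 0.05 and -0.005. The replicate 1 minus replicate 2 difference in log2 CPM was also compared between groups over 10248 genes. It correlated at -0.15 between sham and TAC, 0.09 between sham and knockdown and -0.09 between TAC and knockdown. These correlations were weak, and they cannot settle whether the replicate numbers pair the samples. Over all genes the block gave 20 higher and 20 lower between TAC and sham, and 1 and 0 between knockdown and TAC. Other scalings shifted the median of all genes by at most -0.06 on the log2 scale.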

Other observations

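Among 11 genes known to respond to PPAR-alpha, the 2 libraries of a group stood farther apart in sham than in TAC or knockdown. Pdk4, the kinase that shuts pyruvate out of oxidation, was chosen after its values were seen: it had 70.7 and 327 CPM in the sham libraries, 114 and 164 after TAC and 75.1 and 88.5 under knockdown. Ucp3, a mitochondrial uncoupling protein, chosen in the same way, had 23.9 and 54.4 CPM in the sham libraries, 25.9 and 34.3 after TAC and 21.6 and 18.3 under knockdown. Both were highest in sham replicate 2, the library in which 19 of the 36 fatty acid genes were highest. Over the 11 PPAR-alpha responsive genes tested, none of them among the 36, the median relative to each gene's mean was -0.21 and 0.29 in the sham libraries, -0.06 and 0.08 after TAC and 0.04 and -0.11 under knockdown. In TAC the order of the libraries was opposite to that of the 36 genes, which had 0.06 and -0.12. With all 6 resolved libraries kept, 0 of these 11 genes passed limma's test with Benjamini-Hochberg adjustment in any comparison. The same held with voom weights and robust limma. That count does not cover fits with a library left out, where the sham library kept weighed on Pdk4 and Ucp3. At an unadjusted p below 0.05, 1 was higher and 2 lower between TAC and sham, 1 and 0 between knockdown and TAC, and 1 and 2 between knockdown and sham. These are 9.09% and 18.2%, 9.09% and 0%, and 9.09% and 18.2% of the 11. Over all genes the shares were 5.86% and 3.72%, 1.27% and 0.810%, and 6.02% and 2.78%. The direction of the Pdk4 difference depended on the sham library. Both TAC and both knockdown libraries lay above sham replicate 1 and below sham replicate 2. For Ucp3, both TAC libraries also lay between the sham libraries, and both knockdown libraries lay below them.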
